A study of Mus musculus with 6 samples.

Results

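Ribosome biogenesis and RNA polymerase I were followed through 45 genes in CD4+ T cells before and after activation. The members were taken from a fixed list of names and found in the array table by gene name or an older synonym. Of the 45, 43 were on the array, of 28902 genes in all, and 37 were detected in at least 1 library. Fbl, which encodes the methyltransferase fibrillarin, and Ddx18, which encodes a nucleolar helicase, matched no name in the table. Dkc1, Wdr12, Rrs1, Utp18, Utp20 and Bysl were not detected in any library, Dkc1 on both of its probes and the others on 1 probe each, so nothing is said of their levels. Nop56, Nop58 and Utp20 were listed under older names.

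The RNA came from mice aged 6 weeks, whose strain is labelled RAG1- BW TRP-1 TCR: RAG1 loss and the TRP-1 T cell receptor transgene, against a melanocyte protein, are common to all 6 groups, controls included. Day 0 holds cells labelled as CD4 cells before activation, a library in which markers of other cell types were also detected. Days 2, 4, 7, 12 and 18 hold cells labelled Th17 that had been activated with TRP-1 peptide. Each day is 1 Illumina bead array, and the labels name no sort, cytokine mix, restimulation or number of mice. With 1 library a day there is no replicate error and no test, the number of arrays limits the precision, and "higher" and "lower" are used of signals at least 2-fold apart where the brighter library detected the gene. Levels are normalized log2 signals.

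Ribosomes are made in the nucleolus, where RNA polymerase I copies the ribosomal RNA genes into a long precursor. Small nucleolar ribonucleoproteins (snoRNPs) modify that precursor, the small subunit processome cleaves it, and separate sets of factors build the small and the large subunit before both leave the nucleus. The programme is demanding, and in lymphocytes it is known to be switched up when a resting cell starts to grow after antigen.

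Of 45281 probes, each array detected 13687 to 14258, and 11954 genes were detected in at least 1 library. All 13 T cell identity genes on the array, among them the defining genes Cd3e and Cd4, were detected in every library, and their summed linear signal ran from 16424.7 at day 0 to 51126.1 at day 7. Erythroid markers were detected for 13 of 14 genes at day 0 and for 2 to 6 on the later days, with a summed signal of 64624 at day 0, 23116.9 at day 2 and 152.9 to 1066.3 afterwards. Neutrophil markers were detected for 10 of 12 genes at day 2, with a sum of 32676.9, and for 1 of 12 at day 18, with a sum of 6833.8; the lowest sum was 878.2 at day 12. Macrophage markers were detected for 11 of 12 genes at day 0 and 12 of 12 at day 2, and for 2 of 12 at days 12 and 18, with sums from 8482.5 at day 0 to 90.3 at day 12. B lineage markers were detected for 3 of 7 genes at day 0 and for 1 or 2 later, with Ms4a1, Pax5 and Cd22 undetected in every library. In bulk RNA, fewer cells of a type and less RNA per cell cannot be told apart.

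In the quantile-normalized values most members were highest at day 2 and lowest at day 7. Of the 37 detected members, 20 had their highest signal at day 2, 9 at day 0 and 6 at day 4, and 30 had their lowest at day 7. Over all 11954 genes, 18.20% were highest at day 2 and 16.34% lowest at day 7. Among the activated days alone, day 7 was the lowest for 33 of 37 members, against 19.84% of all genes. Without normalization between arrays day 7 was the lowest day for 14 of 37 members, and with median scaling for 19. With the other 8 alternatives that kept all libraries it was the lowest for 30 to 37. The day of the highest signal depended more on the scaling: day 2 was the highest for 12 members with reference gene scaling, 10 with T cell identity scaling, 5 with median scaling and 2 without normalization between arrays, and day 0 for 17 to 27 in these settings.

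**Figure D1:**
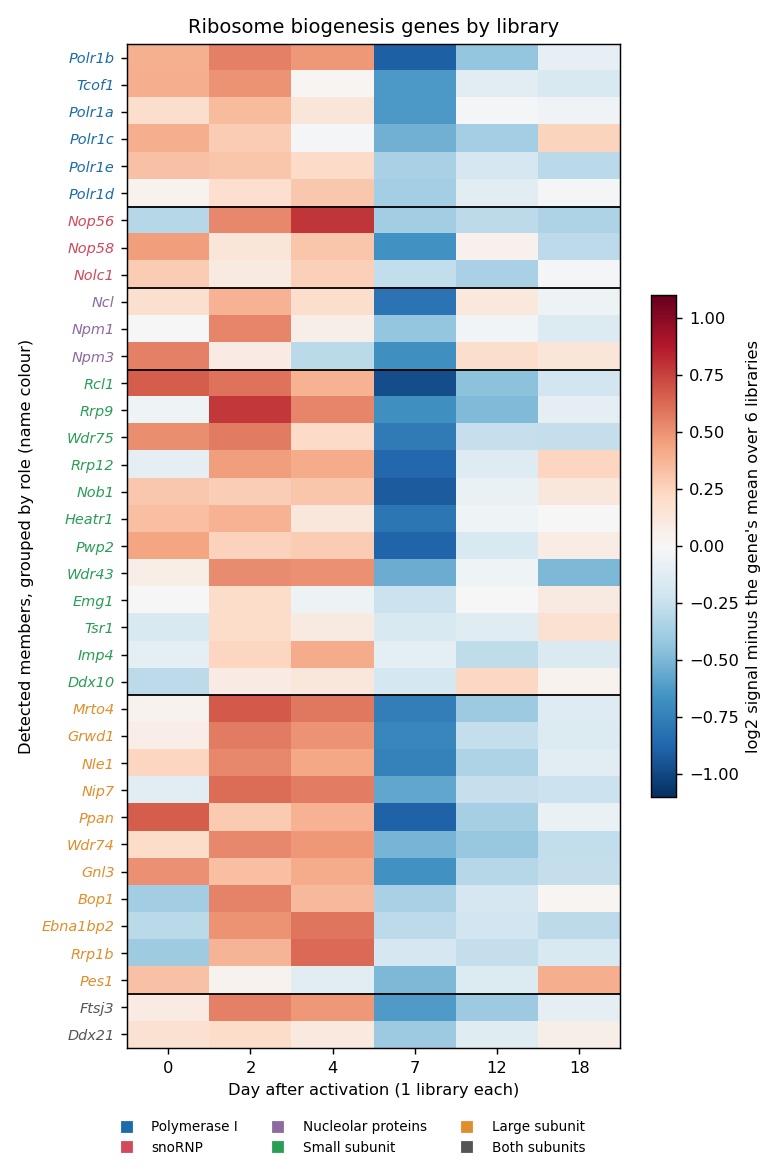
Normalized log2 signal of each of the 37 detected members minus the gene's own mean over the 6 libraries, 1 column a day and 1 row a gene, grouped by role. Red is above and blue below the gene's mean; the day 7 column is blue throughout, and days 2 and 4 are mostly red.

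Every detected member lay below its day 2 and its day 4 level at day 7. Against day 2, 18 of 37 members were lower at day 7 and 0 higher, where 5.54% of all genes tested were lower and 5.81% higher. The median difference of the members was -1.0, with a range from -1.57 to -0.28, beside 0.0 for all genes. Against day 4, 16 of 37 were lower and 0 higher, where 2.43% of all genes were lower and 2.53% higher, and the median was -0.97. This comparison with day 4, and that of day 18 with day 7, were added after the values were seen. Both medians stayed below 0 under all 11 alternatives, between -2.13 and -0.84 against day 2 and between -1.32 and -0.82 against day 4.

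Against day 0 the members differed less at first. At day 2, 0 of 37 were higher and 0 lower, where 7.47% of all genes were higher and 8.97% lower, and 26 of 37 lay above their day 0 signal by any amount, with a median of 0.21. That median ran from -0.23 to 0.27 over the alternatives, being negative with T cell identity scaling, with median scaling and without normalization between arrays. Relative to the median of all genes under the same alternative it was 0.19 to 0.27. At day 4, 2 of 37 were higher (8.1% of all genes) and 0 lower (9.44%), with a median of 0.06. The largest differences at day 2 were those of Bop1 (0.92), Nop56 (0.84), Rrp9 (0.82), Ebna1bp2 (0.79) and Rrp1b (0.77). The lowest were those of Npm3 (-0.47), Ppan (-0.38), Nop58 (-0.33), Pes1 (-0.29) and Pwp2 (-0.18).

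By day 7, 11 of 37 members were lower than at day 0 and 0 higher, where 9.35% of all genes were lower and 8.88% higher; the median was -0.76. At day 12, 2 were lower (7.75% of all genes) and 0 higher (7.19%), with a median of -0.37. At day 18 the median was -0.19, with 0 members higher (7.93% of all genes) and 0 lower (8.69%). These comparisons share the day 0 library, in which the erythroid genes were bright, and those with day 2 share the day 2 library, in which neutrophil genes were bright. The median signal of the 14 detected mitosis genes was 9.22 at day 0, beside 9.71 at day 2 and 7.56 at day 18. From day 2 to day 7 the neutrophil list had a median of -3.94, with 10 of 10 detected genes lower, and the macrophage list -2.58, with 11 of 12 lower, while T cell identity genes had a median of 1.05, with 7 of 13 higher. The part of these shifts in the members' differences was not tested. Scaled so that T cell identity genes were level across the arrays, the members' median at day 7 against day 2 was -2.13 and that of all genes -1.13. Relative to all genes the members' median was -1.03 to -0.84 over the alternatives.

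**Figure D2:**
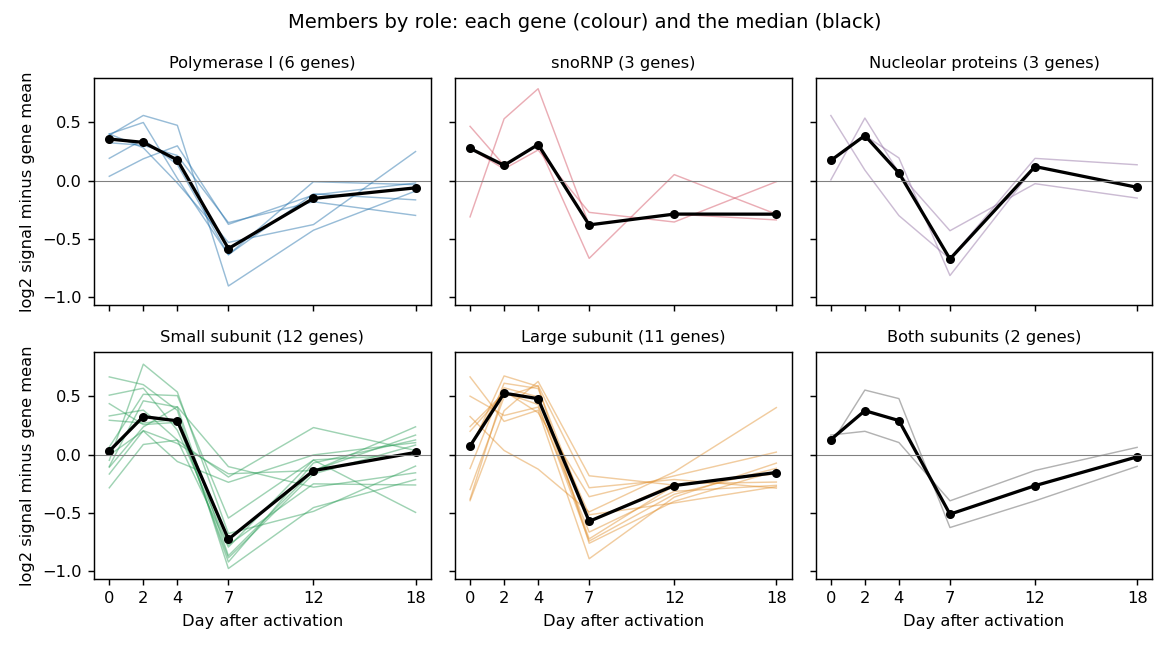
Normalized log2 signal minus the gene's mean over 6 libraries (vertical axis) by day after activation (horizontal axis), 1 panel a role group; thin lines are genes and the black line with points is the group's median. All 6 medians are at their lowest at day 7 or, for the 3 snoRNP genes, at day 7 with days 12 and 18 close by.

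MYC, a growth-driving transcription factor known to act on ribosome biogenesis genes, binds the E-box CACGTG, and the promoters of the members were searched for these letters. RefSeq promoters of GRCm38.p6, 250 bases before to 50 after the start, were available for 39 of the 45 members. The letters were found in 8 of these 39 genes (20.5%), against 8.09% of 27025 genes with a promoter. Among detected genes they were found in 6 of 33 members (18.2%), against 11.7% of all 8050. For cytosolic ribosomal proteins it was 6 of 46 (13.0%). The sequence is its own reverse complement, so both strands were searched at once. Of the detected members with a promoter, 6 held a match and 27 did not. The difference at day 7 from day 2 ran from -1.29 to -0.34 in the former and from -1.57 to -0.28 in the latter, so the ranges overlapped. Myc itself was at 5.57 on day 0, and 6.06, 6.67, 5.90, 5.86 and 5.47 on days 2, 4, 7, 12 and 18. Its signal was highest at day 4, and its level at day 7 was close to that at day 12.

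Of the 6 detected members with a match, the promoters of the 4 whose signals are given for every library are shown, as examples with large and small day 7 differences: Grwd1 (-1.29 against day 2), Wdr43 (-1.06), Pes1 (-0.53) and Tsr1 (-0.37). The other 2 were Nle1 (-1.27) and Imp4 (-0.34). Letters run from 5′ to 3′ on the gene's strand, and capitals mark CACGTG. A match is a description of letters only.
Grwd1 promoter, chr7:45830740-45831039, minus strand: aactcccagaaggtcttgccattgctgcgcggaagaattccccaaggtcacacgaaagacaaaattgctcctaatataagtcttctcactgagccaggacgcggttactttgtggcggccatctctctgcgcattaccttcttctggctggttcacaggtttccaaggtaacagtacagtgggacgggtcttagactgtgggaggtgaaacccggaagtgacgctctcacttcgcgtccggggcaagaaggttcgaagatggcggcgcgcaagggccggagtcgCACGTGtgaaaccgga
Wdr43 promoter, chr17:71615965-71616264, plus strand: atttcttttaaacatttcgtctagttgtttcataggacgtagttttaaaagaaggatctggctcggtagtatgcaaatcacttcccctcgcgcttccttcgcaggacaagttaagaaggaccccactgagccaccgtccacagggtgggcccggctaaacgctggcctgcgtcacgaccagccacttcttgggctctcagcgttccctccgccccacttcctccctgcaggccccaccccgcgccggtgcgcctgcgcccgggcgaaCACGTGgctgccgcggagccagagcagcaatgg
Pes1 promoter, chr11:3963725-3964024, plus strand: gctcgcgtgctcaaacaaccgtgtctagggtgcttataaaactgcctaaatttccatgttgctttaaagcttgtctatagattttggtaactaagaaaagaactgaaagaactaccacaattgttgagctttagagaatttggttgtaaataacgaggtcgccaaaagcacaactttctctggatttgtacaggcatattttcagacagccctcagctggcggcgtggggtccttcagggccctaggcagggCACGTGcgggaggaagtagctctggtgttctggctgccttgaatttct
Tsr1 promoter, chr11:74897830-74898129, plus strand: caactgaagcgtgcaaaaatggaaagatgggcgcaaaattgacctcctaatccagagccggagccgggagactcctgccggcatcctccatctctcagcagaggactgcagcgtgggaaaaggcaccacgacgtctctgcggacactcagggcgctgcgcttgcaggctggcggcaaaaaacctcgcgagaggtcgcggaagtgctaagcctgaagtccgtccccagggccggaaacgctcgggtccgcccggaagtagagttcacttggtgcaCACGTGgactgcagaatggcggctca

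On their brightest probes, RNA polymerase I genes were at their lowest at day 7 in 6 of 6 cases. Polr1b, the second largest subunit and part of the catalytic centre, was at 8.13 on day 0, and 8.30, 8.22, 6.84, 7.32 and 7.65 on days 2, 4, 7, 12 and 18. It stood level over the first 3 time points, was 2.75-fold lower at day 7 than at day 2 and at day 18 lay between those levels. Polr1a, the largest subunit, was at 9.79 on day 0, and 9.95, 9.73, 8.96, 9.59 and 9.56 on days 2, 4, 7, 12 and 18. On this brightest probe it differed by -0.99 at day 7 from day 2, short of 2-fold. Its other probes detected in every library gave -1.07, past 2-fold, and -0.79 and -0.40. The last of these was lowest at day 0, at 5.34, with day 7 at 5.35. Tcof1, the nucleolar protein treacle that assists polymerase I transcription, was at 8.0 on day 0, and 8.10, 7.62, 6.97, 7.49 and 7.44 on days 2, 4, 7, 12 and 18, and was 2.19-fold lower at day 7 than at day 2.

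The other polymerase I subunits moved by less than 2-fold. Polr1c, which polymerase I shares with polymerase III, was at 8.90 on day 0, and 8.78, 8.48, 7.97, 8.12 and 8.75 on days 2, 4, 7, 12 and 18. Its low days were 7 and 12, and day 18 was back near day 2. Polr1d, its partner in both enzymes, was at 11.32 on day 0, and 11.47, 11.58, 10.90, 11.16 and 11.26 on days 2, 4, 7, 12 and 18, with a difference of -0.56 at day 7 from day 2. A second probe for Polr1d, also detected in all libraries, gave a difference of 0.03 there, and of -0.39 at day 7 from day 4, where the brighter probe gave -0.67. That second probe was lowest at day 0, at 10.58, with day 7 at 10.70. Polr1e, a subunit of polymerase I alone, was at 8.92 on day 0, and 8.90, 8.81, 8.24, 8.42 and 8.30 on days 2, 4, 7, 12 and 18. It stayed low at days 12 and 18.

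Of the snoRNP genes, Nop56 and Nop58 encode the paired core proteins of the box C/D particles that carry fibrillarin to the sites it methylates. Nop56 was at 9.42 on day 0, and 10.26, 10.52, 9.35, 9.44 and 9.39 on days 2, 4, 7, 12 and 18. It stood above day 0 at days 2 and 4 only, 2.14-fold higher at day 4, and was level with day 0 from day 7 on. With T cell identity scaling, which put the median of all genes at -1.22 for day 4 against day 0, its difference was -0.04. Nop58 was at 11.17 on day 0, and 10.84, 11.02, 10.04, 10.76 and 10.42 on days 2, 4, 7, 12 and 18. Its highest level was at day 0, it was 2.19-fold lower at day 7, and at day 12 it was close to day 2. The partners therefore differed over the first days, with differences of 0.84 and -0.33 at day 2 from day 0.

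Nolc1, a chaperone of snoRNPs, was at 5.20 on day 0, and 5.03, 5.19, 4.66, 4.57 and 4.92 on days 2, 4, 7, 12 and 18. It was detected at days 0, 2 and 4 and not at days 7, 12 and 18, so its later values are at the limit of detection.

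The abundant nucleolar proteins followed the same course with different starts. Ncl, which encodes nucleolin, a binder of ribosomal RNA precursors, was at 9.40 on day 0, and 9.62, 9.42, 8.42, 9.35 and 9.17 on days 2, 4, 7, 12 and 18. Day 7 stood alone: the signal was 2.29-fold lower than at day 2 and at day 12 was again near day 0. Npm1, the nucleolar chaperone nucleophosmin, was at 13.29 on day 0, and 13.82, 13.35, 12.85, 13.26 and 13.13 on days 2, 4, 7, 12 and 18, with a difference of -0.96 at day 7 from day 2.

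Npm3, a relative of Npm1, was at 12.93 on day 0, and 12.46, 12.07, 11.70, 12.56 and 12.51 on days 2, 4, 7, 12 and 18. Unlike the other nucleolar proteins it was highest at day 0, and its levels at days 12 and 18 were above those at days 4 and 7. Its dimmer probe showed a deeper trough that began at day 2, at 9.19 on day 0, and 7.74, 7.83, 7.56, 9.08 and 8.91 on days 2, 4, 7, 12 and 18. The probes differed by 1.12 log2 units in the change from day 2 to day 18 and by 1.24 in that from day 2 to day 12.

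Small subunit factors included the member with the widest range. In this group 8 of 12 detected genes were lower at day 7 than at day 2, with a median of -1.16, and 6 of 12 were lower than at day 4. Rcl1, a protein needed for an early cleavage that frees the small subunit precursor in yeast, was at 10.31 on day 0, and 10.24, 10.02, 8.67, 9.19 and 9.43 on days 2, 4, 7, 12 and 18. It was 2.98-fold lower at day 7 than at day 2 and 3.12-fold lower than at day 0. At day 12 it was still 2.07-fold lower than at day 2 and 2.17-fold lower than at day 0. Its dimmer probes, detected in every library, gave -0.85 and -0.29 at day 12 from day 2, short of 2-fold. From day 0 they gave -1.05 and -0.29. Rrp9, a protein of the U3 snoRNP around which the processome forms, was at 8.39 on day 0, and 9.21, 8.97, 7.76, 7.95 and 8.34 on days 2, 4, 7, 12 and 18. Unlike Rcl1 it lay above day 0 first, by 0.82 at day 2, and it was 2.73-fold lower at day 7 than at day 2.

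The processome subcomplex that is known to link polymerase I transcription to early processing was represented by Heatr1, Wdr43 and Wdr75. Wdr75 was at 10.09 on day 0, and 10.14, 9.78, 8.80, 9.33 and 9.32 on days 2, 4, 7, 12 and 18, 2.54-fold lower at day 7 than at day 2. Heatr1 was 2.25-fold lower and Wdr43 2.08-fold lower in that comparison. At day 18 Heatr1 differed from day 0 by -0.33 and Wdr43 by -0.56. Wdr43 was at 8.84 on day 0, and 9.29, 9.28, 8.23, 8.73 and 8.28 on days 2, 4, 7, 12 and 18. Its day 18 level was close to that of day 7, and it was the 1 member at least 2-fold lower at day 18 than at day 2.

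Pwp2, a scaffold of the processome, and Rrp12, which takes part in the export of both subunits, were 2.20-fold and 2.51-fold lower at day 7 than at day 2. Nob1, the nuclease that makes the final cut of small subunit RNA, was at 9.08 on day 0, and 9.06, 9.09, 7.87, 8.71 and 8.91 on days 2, 4, 7, 12 and 18. Only day 7 stood out in Nob1, with the other libraries close to each other, and it was 2.06-fold higher at day 18 than at day 7. Rrp12 was the other member that was higher at day 18 than at day 7, by 2.15-fold. A second probe for Nob1, also detected in every library, gave 0.66 at day 18 from day 7, short of 2-fold. At day 7 from day 2 it gave -0.76, where the brighter probe gave -1.19.

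Other small subunit factors differed by less than 2-fold between days 7 and 2. Tsr1, a GTPase-like factor of late small subunit assembly, was at 6.50 on day 0, and 6.87, 6.76, 6.50, 6.53 and 6.83 on days 2, 4, 7, 12 and 18, with the narrowest range of all members. Emg1, a methyltransferase of small subunit RNA, Imp4, a partner of the U3 particle, and the helicase Ddx10 differed by -0.44, -0.34 and -0.28 at day 7 from day 2. Second probes, also detected in every library, gave -0.77 for Emg1 and -0.19 for Imp4, and that of Imp4 lay 1.15 above day 0 at day 4, where its brighter probe lay 0.52 above. On the brightest probes, Ddx10 was the only member whose highest signal was at day 12, at 0.52 above day 0 on the log2 scale. Its second probe detected in every library was highest at day 4, at 5.46, with 5.44 at day 12. That probe stood 0.21 above day 0 at day 12, and gave 0.18 at day 7 from day 2.

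Large subunit factors had 6 of 11 detected genes lower at day 7 than at day 2, with a median of -1.04. Ppan, a factor of early large subunit maturation, was at 11.01 on day 0, and 10.63, 10.72, 9.45, 9.98 and 10.27 on days 2, 4, 7, 12 and 18. It was highest at day 0, 2.94-fold lower at day 7 and 2.04-fold lower at day 12. Its second probe, also detected in every library, was highest at day 4, at 7.00 against 6.82 on day 0. On that probe the differences from day 0 were -1.04 at day 7 and -0.74 at day 12, the latter short of 2-fold. Mrto4, which resembles the ribosomal stalk protein P0 and holds its place in precursors, was at 9.39 on day 0, and 10.02, 9.93, 8.58, 8.94 and 9.20 on days 2, 4, 7, 12 and 18. It was above day 0 at days 2 and 4 and 2.70-fold lower at day 7 than at day 2. Grwd1, a WD-repeat protein of large subunit precursors, was at 7.76 on day 0, and 8.25, 8.18, 6.96, 7.42 and 7.53 on days 2, 4, 7, 12 and 18, and was 2.45-fold lower at day 7 than at day 2.

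Nle1, Nip7 and Wdr74, further factors of large subunit assembly, completed the 6, at 2.41-fold, 2.27-fold and 2.06-fold lower. Gnl3, the GTPase nucleostemin, was at 11.75 on day 0, and 11.59, 11.66, 10.59, 10.94 and 10.99 on days 2, 4, 7, 12 and 18. On this brightest probe it was flat until day 4 and then 2.10-fold lower at day 7 than at day 4, with days 12 and 18 only slightly above day 7. Of the 3 probes for Gnl3, all detected in every library, the brightest gave -0.998 at day 7 from day 2, short of 2-fold. The others gave -1.87 and -1.20. The dimmest was not flat, at 0.79 above day 0 at day 2 and 0.69 above at day 4.

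Bop1 and Pes1 are partners in a complex with Wdr12 that is needed to process large subunit RNA, and they ran apart. Bop1 was at 8.24 on day 0, and 9.16, 8.98, 8.26, 8.44 and 8.64 on days 2, 4, 7, 12 and 18. It peaked at day 2, and its day 7 level was that of day 0. Pes1 was at 7.59 on day 0, and 7.30, 7.14, 6.77, 7.12 and 7.67 on days 2, 4, 7, 12 and 18. It was highest at day 18 and at day 0, and it was the 1 member whose highest signal was at day 18. At day 18 against day 2 the difference was -0.52 for Bop1 and 0.37 for Pes1, and each rested on 1 probe detected in all libraries.

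Ebna1bp2, an early large subunit factor, was at 10.06 on day 0, and 10.85, 10.95, 10.08, 10.15 and 10.07 on days 2, 4, 7, 12 and 18, up at days 2 and 4 and level with day 0 afterwards. Rrp1b, a nucleolar protein of large subunit precursors, had the same shape: it was at 9.13 on day 0, and 9.90, 10.15, 9.35, 9.27 and 9.36 on days 2, 4, 7, 12 and 18 and was 2.03-fold higher at day 4 than at day 0. With T cell identity scaling, and all genes at -1.22, that difference was -0.13. Together with Bop1 and Nop56, these genes made a set in which day 7 was close to day 0. The differences were 0.02, 0.21, 0.02 and -0.07. The set was picked out after its values were seen. It leaves out Imp4, Tsr1 and Ddx10, whose brightest probes differed by only 0.0053, 0.0021 and 0.092 at day 7 from day 0. Rrp1b is in the set by its brightest probe. Of its 4 probes, all detected in every library, the other 3 differed by 0.05, 0.69 and 0.92 at day 7 from day 0.

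Of the factors that act on both subunits, Ftsj3, a methyltransferase-like protein, was at 6.83 on day 0, and 7.29, 7.22, 6.11, 6.34 and 6.64 on days 2, 4, 7, 12 and 18, and was 2.26-fold lower at day 7 than at day 2. Ddx21, a helicase active in both transcription and processing of ribosomal RNA, was at 9.05 on day 0, and 9.08, 8.99, 8.49, 8.75 and 8.95 on days 2, 4, 7, 12 and 18. On this brightest probe its range over the libraries was 0.60 log2 units against 1.18 for Ftsj3, and at day 18 it was near day 0. A second probe for Ddx21, also detected in every library, was highest at day 4. It stood 0.56 above day 0 there, where the brighter probe gave -0.06.

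After day 7 the members lay closer to day 2 in the quantile-normalized values. At day 12, 3 of 37 were lower than at day 2, where 6.24% of all genes were, and 0 were higher (6.79%): Rrp9 by 2.39-fold, Mrto4 by 2.10-fold and Rcl1 by 2.07-fold, and the median was -0.60. The dimmer probes for Rcl1 fell short of 2-fold there. At day 18, 1 of 37 was lower than at day 2 (7.95% of all genes) and 0 higher (8.9%), with a median of -0.52. Against day 7, 35 of 37 lay above at day 18, 2 of them by 2-fold or more (4.67% of all genes) and none lower by 2-fold (5.96%), with a median of 0.47. That median was -0.04 without normalization between arrays and 0.06 with median scaling, and 0.34 to 0.44 under every alternative once the median of all genes was subtracted. The lowest differences at day 18 from day 2 were those of Wdr43 (-1.01), Rrp9 (-0.87), Nop56 (-0.87), Nip7 (-0.85) and Wdr75 (-0.83), and the highest were those of Pes1 (0.37), Npm3 (0.05), Polr1c (-0.03), Tsr1 (-0.04) and Ddx10 (-0.05).

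**Figure D3:**
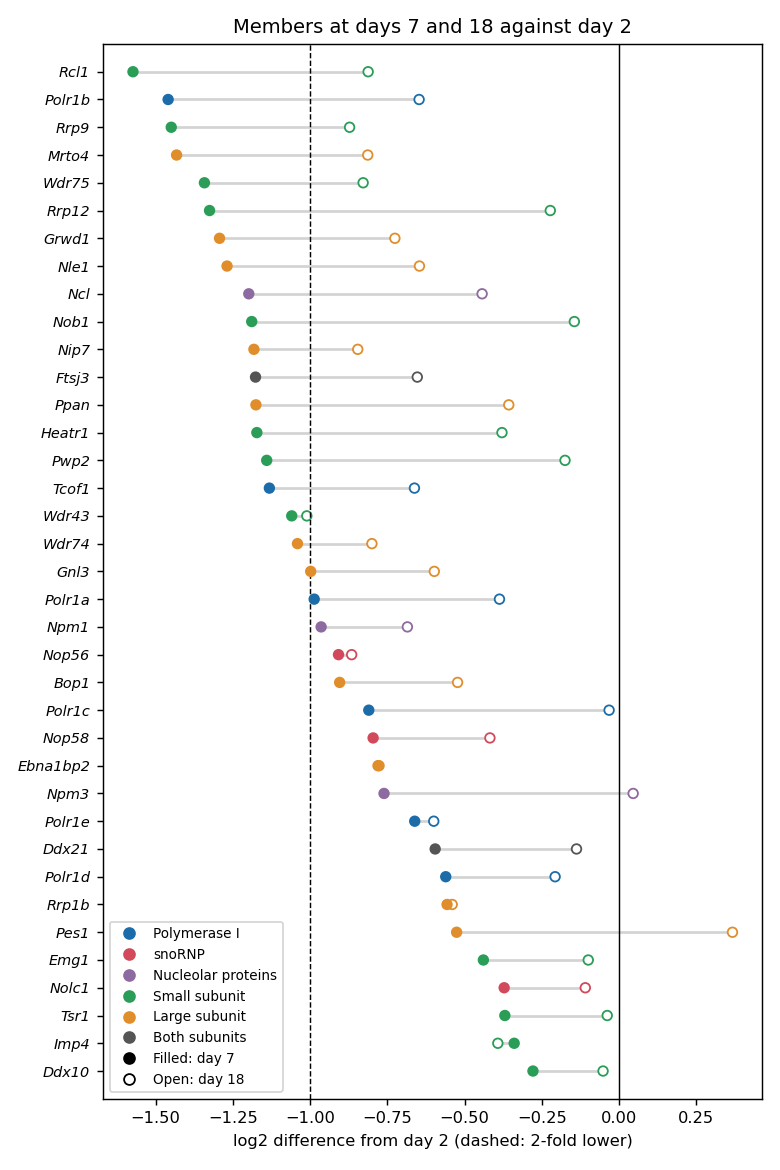
Log2 difference from day 2 (horizontal axis) of each detected member (vertical axis) at day 7 (filled) and day 18 (open), coloured by role; the solid line is no difference and the dashed line 2-fold lower. All 37 filled points lie left of the solid line and 18 left of the dashed one, while 1 open point lies left of the dashed line.

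Between days 2 and 4 the members hardly moved, with a median of -0.08 and 0 of 37 higher or lower, where 1.91% of all genes were higher and 2.28% lower. The next library is that of day 7.

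A pair of probes gave a check within the arrays. For 16 members a second probe was also detected in all 6 libraries, and at day 7 against day 4 both probes had the same sign in 16 of 16, with medians of -0.86 on the brighter and -0.83 on the dimmer probes. At day 7 against day 2 the sign was shared in 14 of 16, with medians of -0.99 and -0.84; Ddx10 and Polr1d were the exceptions. The other comparisons shared the sign in 9 to 15 of 16. The fewest were 9 at day 4 against day 0, with medians of -0.05 and 0.21, and 11 at day 4 against day 2, with -0.09 and 0.10, and at day 12 against day 0, with -0.32 and -0.14. Over all 2398 genes with such a pair, the SD of the disagreement was 0.33 log2 units for the difference between days 7 and 2, and 0.43 for that between days 2 and 0. It describes disagreement between probes, not between cultures.

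**Figure D4:**
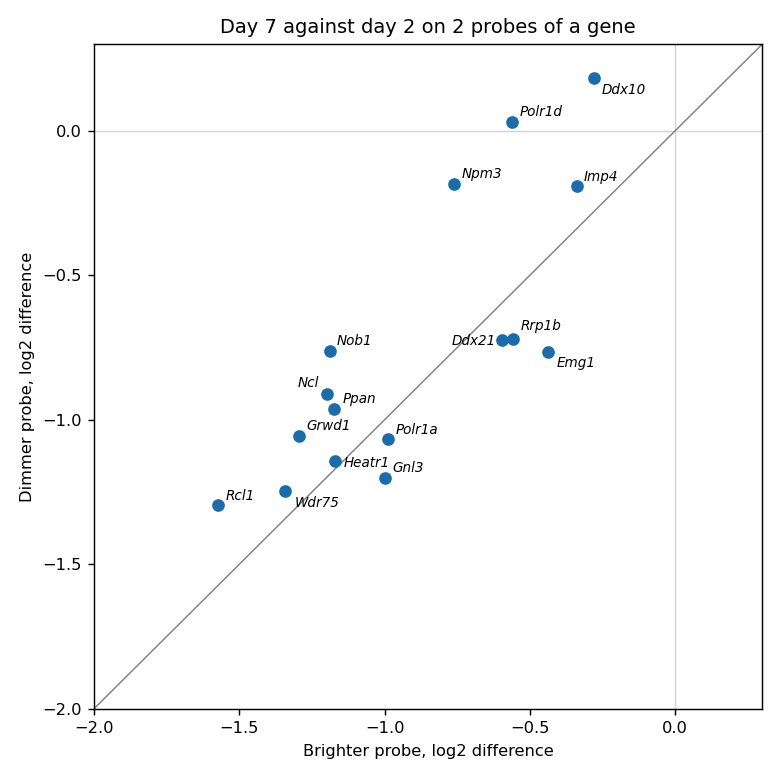
Log2 difference at day 7 from day 2 on the brighter (horizontal axis) and the dimmer probe (vertical axis) of the 16 members with 2 probes detected in all libraries; the diagonal is equality. 14 of 16 points lie below 0 on both axes, and Polr1d and Ddx10 lie above 0 on the dimmer probe.

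Other genes of the pathway moved in the same direction by less. Of 83 further biogenesis genes 68 were detected, and at day 7 against day 2, 17 of 68 (25.0%) were lower and 0 higher, with a median of -0.65 and 64 of 68 below 0. Their lowest day was day 7 in 45 of 68, and none had its highest signal then. At day 2 against day 0 the median was 0.23, with 0 of 68 higher or lower.

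By role, 10 of 30 other large subunit factors, 5 of 27 other small subunit factors, 2 of 7 other snoRNP proteins and 0 of 4 other polymerase I factors were lower at day 7 than at day 2. Among the large subunit factors Sdad1 was at 8.18 on day 0, and 7.81, 7.35, 6.56, 7.26 and 7.38 on days 2, 4, 7, 12 and 18, and Lyar, a nucleolar protein of growing cells, at 7.87 on day 0, and 8.85, 8.20, 7.38, 7.73 and 7.58 on days 2, 4, 7, 12 and 18. Both were lowest at day 7, and their highest libraries were day 0 for Sdad1 and day 2 for Lyar. Utp4, of the same subcomplex as Heatr1, was at 9.34 on day 0, and 10.14, 9.83, 8.73, 8.90 and 8.80 on days 2, 4, 7, 12 and 18, and Noc4l, a small subunit factor, at 8.92 on day 0, and 9.83, 9.88, 8.79, 8.71 and 8.64 on days 2, 4, 7, 12 and 18; both were low from day 7 to day 18.

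Ruvbl1 and Ruvbl2, paired ATPases that assemble snoRNPs and also serve in chromatin remodelling, were the snoRNP genes with the widest range. Ruvbl2 was at 9.30 on day 0, and 9.94, 9.26, 8.31, 8.48 and 8.22 on days 2, 4, 7, 12 and 18, and Ruvbl1 at 10.14 on day 0, and 10.31, 9.74, 8.90, 9.60 and 9.13 on days 2, 4, 7, 12 and 18. Both stayed low at day 18, and 3 of 7 genes in that list were lower at day 18 than at day 0. Taf1d, of the factor that loads polymerase I on its promoter, was at 8.68 on day 0, and 8.84, 9.27, 8.60, 8.42 and 8.21 on days 2, 4, 7, 12 and 18, and Ubtf, the activator of ribosomal RNA genes, at 8.59 on day 0, and 8.31, 8.27, 7.72, 8.07 and 8.08 on days 2, 4, 7, 12 and 18.

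Subunits shared by the polymerases had a median of -0.82 at day 7 against day 2, with 4 of 4 at their lowest at day 7; Polr2h was at 10.42 on day 0, and 10.20, 9.78, 9.37, 9.59 and 9.56 on days 2, 4, 7, 12 and 18, and Polr2f at 10.67 on day 0, and 10.96, 10.85, 10.04, 10.39 and 10.41 on days 2, 4, 7, 12 and 18. Polymerase II subunits had a median of -0.08 over 4 genes, and polymerase III subunits -0.31 over 9, with 0 lower in either list. Polr2d was at 8.97 on day 0, and 9.41, 8.98, 8.51, 8.63 and 8.44 on days 2, 4, 7, 12 and 18, and Polr2a, the catalytic subunit, at 7.28 on day 0, and 7.56, 7.94, 7.63, 7.35 and 7.07 on days 2, 4, 7, 12 and 18. Neither had its low point at day 7, but Polr2d differed by -0.90 at day 7 from day 2, the lowest of the polymerase II list. The highest in that list was 0.07. Polr3b, the second largest polymerase III subunit, was at 8.89 on day 0, and 7.94, 7.97, 7.46, 8.14 and 8.22 on days 2, 4, 7, 12 and 18.

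Cytosolic ribosomal proteins, the building blocks of the particle, had a median of -0.02 over 56 detected genes at day 7 against day 2, with 1 of 56 lower, and of -0.13 at day 2 against day 0. Their probes sit near the top of the signal scale, with a median level of 13.61 at day 7, and many have near-identical pseudogene copies. Mitosis genes went the other way: the median of 14 detected genes was 0.57 at day 7 against day 2, and 11 of 14 had their highest signal at day 7, the day on which the biogenesis genes were lowest. At day 18 against day 7 the mitosis list had a median of -2.49, with 13 of 14 lower, while the members' median was 0.47. No test of the difference between lists is possible with 1 library a day.

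**Figure D5:**
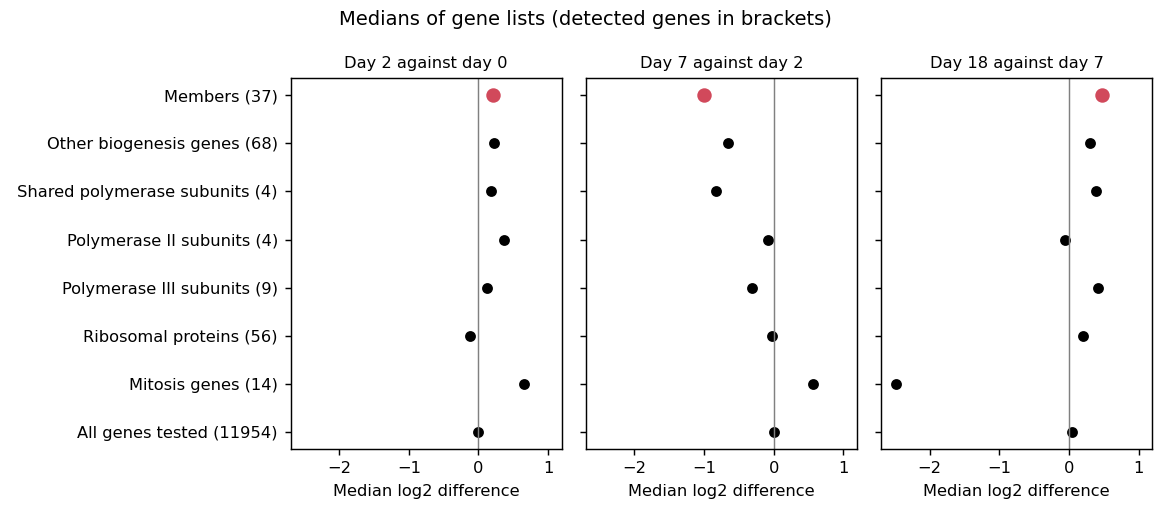
Median log2 difference (horizontal axis) of 8 gene sets (vertical axis, with the number of detected genes) in 3 comparisons. The members (red) lie at -1.0 at day 7 against day 2, where ribosomal proteins and all genes lie near 0 and mitosis genes above 0; the last panel has mitosis genes far below 0 and the members above it.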

How the data were processed

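Each of the 6 samples was hybridized to 1 Illumina bead array. Per the file headers, the deposited table gives an intensity per probe exported from GenomeStudio without normalization, and a detection p-value. The authors deposited normalized intensity values too, which share their quantiles across arrays. For neither the p-value nor this normalization do the sources used here state a method. All 18 per-sample columns were used.

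Signals were background-corrected from the detection p-values, quantile-normalized and put on the log2 scale after an offset of 16 (neqc, limma 3.58.1, R 4.3.3), which understates folds of dim genes; the rest used Python 3.11.15, pandas 2.3.3, numpy 2.4.6 and matplotlib 3.10.9. Median deposited signals were 87.2 to 93.4. Of 30854 probe names, 16223 matched a RefSeq GRCm38 symbol and 5684 a synonym of 1 gene; RefSeq served for names and promoters only. A gene's value is that of its brightest probe (by mean over the libraries), detected where the detection p is below 0.01. Higher or lower means 2-fold or more with detection in the brighter library; an undetected dimmer signal was set to the lowest detected signal of its array if that was higher. Percentages of all genes are over the 11954 detected in at least 1 library. Calling was tested on simulated data made from 1 library, with changes larger than 2-fold in bright probes. It does not measure how calls near 2-fold behave.

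Members, lists and the 9 comparisons with days 0 and 2 were chosen with earlier results of these data known. Values in all 6 libraries are given for each role group's 3 widest and 1 narrowest members (all in groups of 6 or fewer) and 6 chosen members, for the 5 highest and lowest differences at day 2 against day 0 and day 18 against day 2 as differences, and for the 2 widest genes of each other list; a few more values serve descriptions, and some genes that this rule or the marker lists name are not reported here. The 9 alternatives were median scaling, reference gene scaling (18 genes), T cell identity scaling (13 genes), an offset of 50, the deposited values, no background correction, a detection p below 0.05, genes detected in all 6 libraries and the mean of a gene's probes; added once values had been seen were no normalization between arrays and normalization without day 0.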

Additional observations from a re-analysis of the deposited data

How the results depend on the processing

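No paired analysis was possible because each day has 1 library. The medians of the members kept their sign for days 7, 12 and 18 against day 0 under the 10 alternatives that hold day 0, and against day 2, as for day 7 against day 4, under all 11. Those of days 2 and 4 against day 0, day 4 against day 2 and day 18 against day 7 did not. T cell identity scaling moved the most, and moved all genes with the members. Under it the medians against day 0 were -0.23, -1.14, -2.31, -1.60 and -1.49 on days 2, 4, 7, 12 and 18, where all genes had -0.45, -1.22, -1.58, -1.26 and -1.15. From day 4 on, 22, 37, 36 and 35 members were then lower, as were 58.9%, 69.7%, 62.0% and 56.3% of all genes. Against day 2 the medians were -0.80, -2.13, -1.42 and -1.34 on days 4, 7, 12 and 18 (all genes -0.79, -1.13, -0.84 and -0.68), with 5, 37, 33 and 28 members and 20.1%, 50.9%, 31.9% and 29.5% of all genes lower. The median of day 7 against day 4 was -1.32, with 26 members and 6.35% of all genes lower, and that of day 18 against day 7 was 0.79, with 9 members and 9.84% of all genes higher. At day 4 against day 0 no member (0) was higher, with Nop56 at -0.041 and Rrp1b at -0.13. The highest signal was on day 0 in 27 members, on day 2 in 10 and on days 4, 12 and 18 in 0. Reference gene scaling gave medians of 0.0061, -0.18, -0.97, -0.50 and -0.34 against day 0 on days 2, 4, 7, 12 and 18, -0.42 for day 18 against day 2, and 0.60 for day 18 against day 7. It gave 0 members higher at day 4 and 17 lower at day 7 against day 0, 0 lower at day 18 against day 2, 4 higher at day 18 against day 7, and 17 and 12 members highest on days 0 and 2.

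Median scaling gave medians of -0.0026, -0.49 and -0.77 against day 0 on days 2, 12 and 18, 0.088 and -0.84 against day 2 on days 4 and 18, and 0.057 at day 18 against day 7. It gave 1 member higher at day 4 and 12 lower at day 18 against day 0, 10 lower at day 18 against day 2, 0 higher at day 18 against day 7, 17, 5, 14 and 0 members highest on days 0, 2, 4 and 18, and 19 lowest on day 7. No normalization between arrays gave medians of -0.076, -0.061, -0.89, -0.53 and -0.90 against day 0, 0.13, -0.86 and -0.89 against day 2 on days 4, 7 and 18, and -0.038 at day 18 against day 7. It gave 1 member higher at day 4 and 13 lower at day 18 against day 0, 15 lower at day 18 against day 2, 0 higher at day 18 against day 7, 20, 2, 14 and 0 members highest on days 0, 2, 4 and 18, and 14 lowest on day 7. No background correction gave medians of -0.57 at day 7 against day 0, -0.84 and -0.41 against day 2 on days 7 and 18, and -0.82 at day 7 against day 4. It gave 1 member higher at day 4 and 1 lower at day 12 against day 0, 10, 1 and 0 lower on days 7, 12 and 18 against day 2 (18, 3 and 1 as reported), 8 lower at day 7 against day 4 (16) and 0 higher at day 18 against day 7. An offset of 50 gave a median of -0.66 at day 7 against day 0, 1 member higher at day 4 against day 0, 0 lower at day 18 against day 2 and 1 higher at day 18 against day 7. The mean of a gene's probes gave medians of 0.25 and -0.24 against day 0 on days 4 and 12, -0.42 for day 18 against day 2, and -0.87 for day 7 against day 4, with 1 member higher at day 2, 1 lower at day 4 and 0 lower at day 12 against day 0. All genes moved too where arrays were not quantile-normalized. For day 18 minus day 0, median scaling gave all genes -0.43, with 19.5% lower. No normalization between arrays gave them -0.56, with 24.5% lower. With all genes subtracted, the members' median was -0.34 in both. For day 18 minus day 2 all genes had -0.18 (12.6% lower) and -0.24 (13.9%), and the members -0.65 after subtraction. Reference gene scaling put all genes at -0.24 for day 7 minus day 0, with 14.0% lower. The causes of the changes between alternatives were not tested. Where no share of all genes stands beside a count of members, a general change in calls was not separated from one in the members. The deposited values, the looser detection limit, genes detected in all libraries and normalization without day 0 kept every count within 1.5 times. Medians are listed here where they shifted by 0.1 or more, a limit for reporting and not an error. No difference between days has an error estimate.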
